A study of Oryctolagus cuniculus with 36 samples.

Results

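The comparison described here set the embolized, cranial liver lobe against the non-embolized, caudal lobe in wild-type rabbits that had received obeticholic acid (OCA) before portal vein embolization. Each lobe had 6 RNA libraries, which the labels call atrophic and hypertrophic liver, out of 36 libraries in the whole series. The genes described are the 8317 of 9419 listed genes whose normalized count reached 10 in 6 or more of these 12 libraries. The same lobes of wild-type rabbits given vehicle, 6 libraries each, serve as the neighbouring comparison. Every animal was embolized, so no lobe stands for an untreated liver, and because the embolized lobe was always the cranial one, the effects of embolization and of position in the liver cannot be told apart. The labels give neither age nor strain, nor whether the 2 lobes with the same number came from 1 rabbit, and the spread behind each p-value is that between libraries, which may be technical.

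Portal vein embolization closes the portal branches of some lobes. These lose the blood that drains the gut and shrink, while the lobes that keep portal flow enlarge. Bile acids reach the liver with portal blood, and obeticholic acid is a semisynthetic bile acid that activates FXR, the nuclear receptor through which hepatocytes sense bile acids and restrain their synthesis. In whole tissue, fewer cells of a type and less RNA per cell cannot be told apart. The deposited tables list Ensembl rabbit gene IDs without names, and the RefSeq rabbit gene table used here gave an Ensembl ID for 0 of its 38822 genes. Genes therefore appear as groups, with 4 given by ID, their functions are not stated, and the tissue labels could not be checked against marker genes.

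About 1 in 3 liver genes differed between the lobes under OCA. In the embolized lobe 1334 of the 8317 genes rose (16.5% of all 8653 liver genes tested did so) and 1341 fell (15.6% of all tested), at a limma adjusted p under 0.05. Together they were 32.2% of the genes, beside 32.1% of all tested. The near-equal split of directions holds under the deposited scaling. With equal library totals 1283 genes were higher and 1005 lower, and with equal upper quartiles 1496 and 1236. Over all levels together, the called rises were larger than the called falls. The median log2 fold change of the rises was 1.06, with quartiles of 0.69 and 1.77. That of the falls was −0.77, with quartiles of −1.20 and −0.57. At least 2-fold changes were found in 716 higher and 441 lower genes, beside 1263 genes in either direction among all 8653 tested (14.6%), at least 4-fold in 275 and 163, and at least 8-fold in 112 and 27. Only 1 fall, but 36 rises, reached 16-fold.

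**Figure D1:**
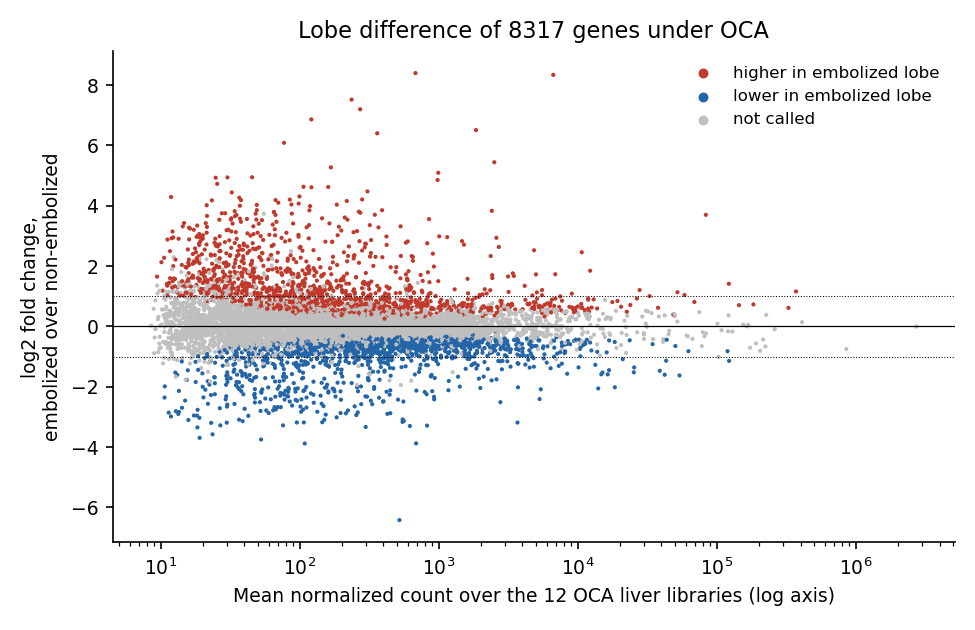
Log2 fold change of the embolized over the non-embolized lobe under OCA for each of the 8317 genes (points) against its mean normalized count over the 12 libraries, on a log axis; dotted lines mark 2-fold. The 1334 higher genes reach further from 0 than the 1341 lower genes, mostly at low counts.

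The excess of large rises lay among genes of low level. Of the 2950 genes with a mean normalized count under 100 over the 12 libraries, 552 were higher and 283 lower, 442 and 189 of them at least 2-fold. Between 100 and 1000, falls outnumbered rises, with 596 of 4066 genes higher and 734 lower, but rises of at least 2-fold remained the more frequent, 231 against 184. Between 1000 and 10000 both counts had more falls, with 153 of 1140 genes higher and 288 lower, 34 and 52 of them at least 2-fold. Of the 161 most abundant genes, at 10000 or more, 33 were higher and 36 lower, 9 and 16 at least 2-fold. Median log2 fold changes of called rises and falls were 1.54 and −1.30 under 100, and 0.84 and −0.70 between 100 and 1000. They were 0.68 and −0.65 between 1000 and 10000, and 0.75 and −0.85 at 10000 or more. The median SE of a gene was 0.36 under 100 and 0.17 to 0.22 above, so low genes had to change more to be called. Some large changes at low level are fixed by how the genes were chosen, since a gene near silent in 1 lobe enters through the other lobe alone and then has to differ. The choice treated both lobes alike, so it does not set which direction is more frequent. Among the 7999 genes with a count of at least 10 in 3 or more libraries of each lobe, 545 rises and 399 falls reached 2-fold, 147 and 130 reached 4-fold, and 45 and 17 reached 8-fold. The remaining 128 rises and 33 falls of at least 4-fold were in genes that lacked this in 1 lobe.

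**Figure D2:**
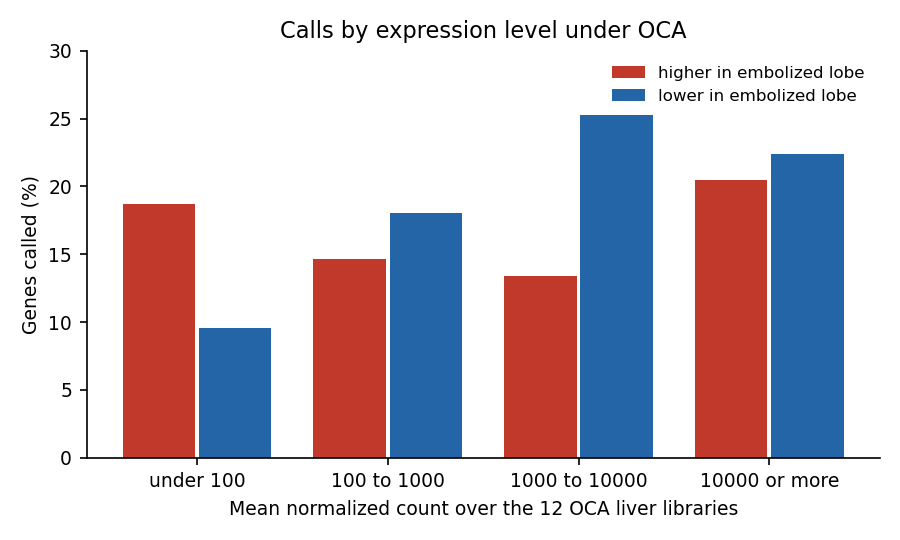
Share of genes called higher (red) or lower (blue) in the embolized lobe under OCA, in percent, by mean normalized count over the 12 libraries. Rises exceed falls under 100 (18.7% against 9.59%), and falls exceed rises between 1000 and 10000 (25.3% against 13.4%).

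At the far end were genes present in 1 lobe and near silent in the other. There were 61 genes at 10 or more in all 6 embolized libraries and under 10 in all 6 non-embolized ones, and 9 with the opposite pattern. Their levels were mostly low: the median of the 61 was 32.9 normalized counts in the embolized lobe and 2.79 in the non-embolized lobe, although 1 of them reached a median of 1162 in the embolized lobe. The 9 genes had medians of 14.8 to 50.6 in the non-embolized lobe. In the vehicle libraries, which played no part in this choice, the embolized median was the higher one for 60 of the 61 genes and the lower one for all 9. The full pattern recurred there for 5 of the 61 and 2 of the 9.

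The lobes were fully separated for a smaller set. In 568 genes every embolized library lay above every non-embolized one, beside 606 of all 8653 genes tested (7.00%), and in 641 every embolized library lay below, beside 646 of all tested (7.47%). Which direction had more depended on the scaling: with equal library totals the counts were 593 above and 459 below, and with equal upper quartiles 613 and 590. They included 557 of the 1334 called rises (41.8%) and 627 of the 1341 called falls (46.8%); in the other calls the ranges of the lobes touched.

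ENSOCUG00000010756 had the lowest p of all rises of at least 2-fold. Its normalized counts ran from 296 to 652 with a median of 489 in the embolized OCA libraries, against 24.4 to 44.6 with a median of 33.6 in the non-embolized OCA libraries. Every embolized library was above every non-embolized one, and the highest non-embolized value was far below the lowest embolized value. The log2 fold change was 3.80 ± 0.24 (SE, n = 6 per group; limma adjusted p = 1.97e-10). Under vehicle the embolized libraries ran from 302 to 707 with a median of 457, against 33.3 to 76.0 with a median of 65.6 in the non-embolized lobe, a log2 fold change of 2.90 ± 0.24 (limma adjusted p = 2.14e-08). The embolized levels thus overlapped between treatments.

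ENSOCUG00000007635 was the second rise. It ran from 468 to 902 with a median of 757 in the embolized OCA lobe, against 74.4 to 161 with a median of 103 in the non-embolized OCA lobe. The groups did not overlap, and the log2 fold change was 2.70 ± 0.23 (SE; limma adjusted p = 3.80e-08). Under vehicle it was at 420 to 907 with a median of 658 in the embolized lobe, against 118 to 270 with a median of 193 in the non-embolized lobe (1.74 ± 0.23, limma adjusted p = 6.57e-06). The lobe gap of both genes was wider under OCA by 0.91 ± 0.34 and 0.96 ± 0.33 on the log2 scale, which did not pass the test of that difference (limma adjusted p = 0.627 for ENSOCUG00000010756 and 0.607 for ENSOCUG00000007635).

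ENSOCUG00000011100 had the lowest p of the falls. It ran from 114 to 185 with a median of 139 in the embolized OCA lobe, against 361 to 565 with a median of 493 in the non-embolized OCA lobe, without overlap (log2 fold change −1.71 ± 0.14, SE; limma adjusted p = 2.16e-08). ENSOCUG00000004987 was at 48.4 to 85.7 with a median of 58.6 in the embolized OCA lobe, against 205 to 325 with a median of 245 in the non-embolized OCA lobe, also without overlap (−2.02 ± 0.17, SE; limma adjusted p = 2.76e-08). Under vehicle the falls were −1.48 ± 0.14 for ENSOCUG00000011100 and −2.18 ± 0.17 for ENSOCUG00000004987, and neither difference between treatments passed its test (−0.23 ± 0.19 for ENSOCUG00000011100 and 0.16 ± 0.24 for ENSOCUG00000004987, log2 scale, SE; limma adjusted p = 0.816 and 0.893). The 4 genes were picked for their low p, so their separation is description.

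**Figure D3:**
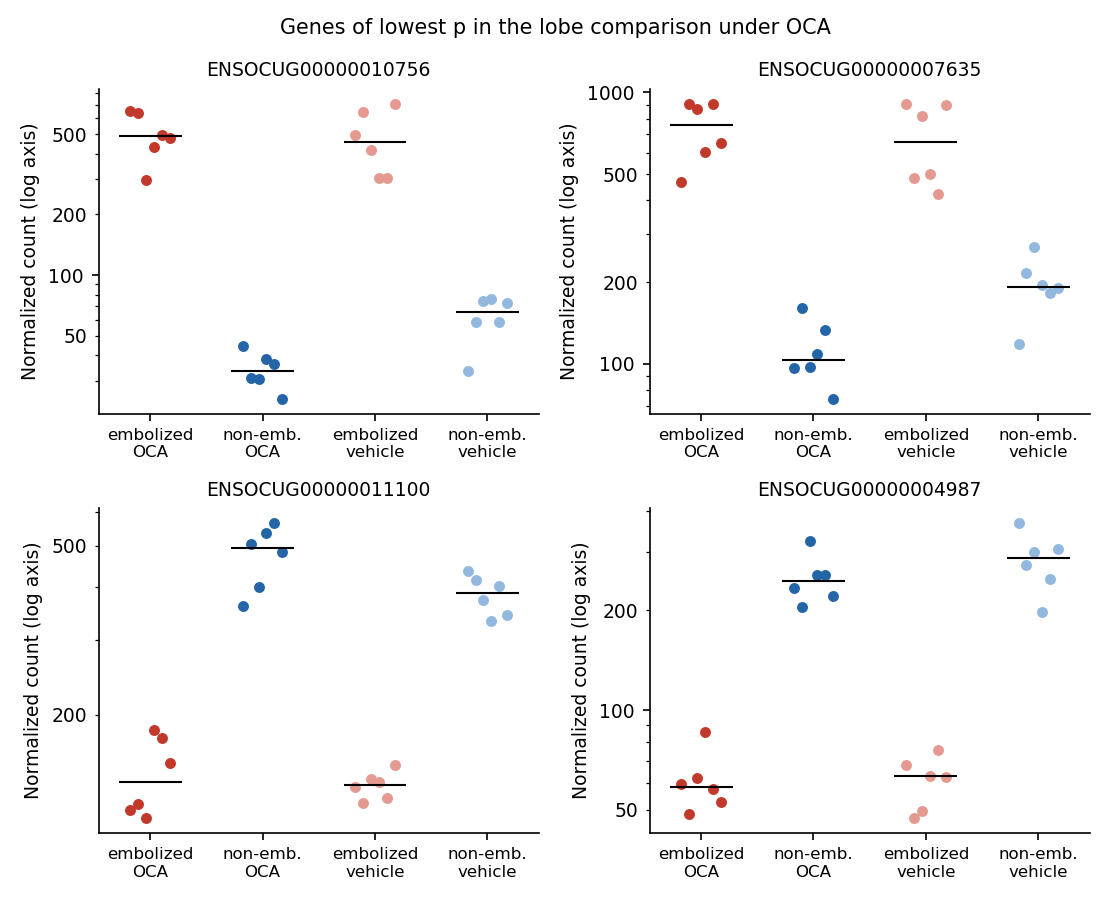
Normalized counts (log axes) of 4 genes in every liver library, 6 per group; points are libraries in order of replicate number and bars are medians. In each gene the embolized and non-embolized OCA libraries form separate ranges, and the vehicle libraries show the same order of lobes.

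The lobe pattern under OCA was read against the vehicle lobes, whose fold changes share no library with those under OCA. The calls under each treatment, however, rest on a spread shared by all liver libraries. A gene of small shared spread is more easily called under either treatment, so the overlap of calls is not independent. Of the 1334 genes higher under OCA, 1286 (96.4%) also had a positive log2 fold change under vehicle, against 52.1% of the 8317 genes, and 646 were called there (11.7% of all genes tested were called higher). Of the 1341 lower genes, 1309 (97.6%) were negative under vehicle, against 47.9% of the 8317, and 873 were called there (13.9% of all tested were called lower, and 25.5% either way). The 646 shared rises were 48.4% of the OCA list and 67.4% of the vehicle list, and the 873 shared falls were 65.1% and 73.6%. The 688 rises called under OCA and not under vehicle still had a median log2 fold change of 0.41 under vehicle, against 0.91 under OCA, and for the 468 such falls it was −0.27 against −0.58.

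The test of the difference between treatments called no gene. In the interaction of lobe and treatment 0 of the 8317 genes passed (limma, smallest adjusted p = 0.561; 0.00% of all genes tested), while 613 (7.37%) had an unadjusted p below 0.05. With no effect at all, a share of about 0.05 of the genes would have such a p. The tests on recovered reads gave 0 calls and 535 such genes with edgeR, and 4 calls and 610 such genes with DESeq2. A replicate block, which takes same-numbered libraries of a treatment as pairs, gave 0 calls and 939 such genes (smallest limma adjusted p = 0.222). Over all settings the number of genes with an unadjusted p below 0.05 ran from 387 within replicates 4 to 6 to 1295 with sample quality weights, which made 0 calls (smallest limma adjusted p = 0.0838).

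Within the genes of large change the 2 directions differed in which treatment had the wider gap. The 275 rises of at least 4-fold under OCA had a median log2 fold change of 2.83 under OCA and 2.06 under vehicle, and 262 of them were larger under OCA. A list picked at one treatment favours the size seen there. For the 149 rises of at least 4-fold picked under vehicle, however, the median was 3.19 under OCA and 2.51 under vehicle, and 123 were larger under OCA. The falls ran the other way: the 163 falls of at least 4-fold under OCA had medians of −2.44 under OCA and −2.91 under vehicle, with 115 larger under vehicle, and the 187 picked under vehicle had medians of −2.32 and −2.88, with 161 larger under vehicle. The vehicle-picked lists hold only genes among the 8317, which were chosen on OCA counts. Genes too low under OCA could not enter, which favours the size seen under OCA. Of the 1010 genes called higher under vehicle among all tested, 959 are among the 8317, and of the 1200 called lower 1186 are. The part of this choice in the differences was not tested. The median difference over the vehicle-picked rises stayed positive when each of the 24 liver libraries was left out in turn, between 0.42 without embolized vehicle 4 and 1.03 without embolized vehicle 5, around 0.67 with all libraries, and was 0.37 with edgeR or DESeq2. For the vehicle-picked falls the difference, OCA minus vehicle, was 0.52, between 0.35 without embolized OCA 4 and 0.76 without embolized vehicle 5 over the same omissions, and 0.25 without the 3 libraries that stood apart on the second principal component (described last). That of the OCA-picked falls, 0.30 with all libraries, shrank to 0.091 without embolized OCA 4 and to 0.058 without the 3 libraries. Without the 4-fold limit, each list was mostly larger under the treatment where it was picked. Of the 1334 rises and 1341 falls called under OCA, 1121 and 896 were larger under OCA. Of the 959 rises and 1186 falls called under vehicle, 525 and 758 were larger under vehicle. Among all 8317 genes, 4501 (54.1%) were larger under OCA. No gene of these lists passed the interaction test, and no test was made over the lists.

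**Figure D4:**
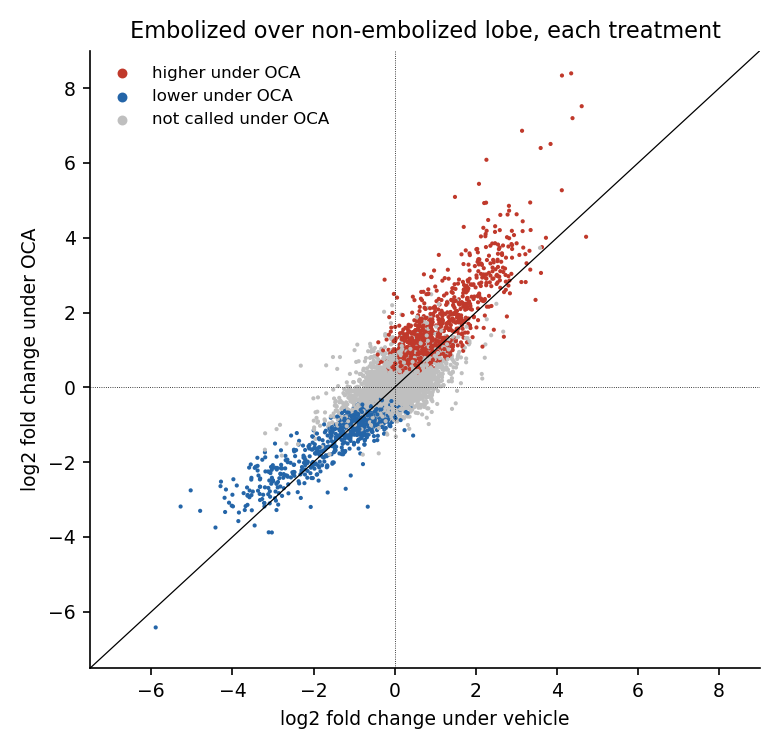
Log2 fold change of the embolized over the non-embolized lobe under OCA against that under vehicle, for the 8317 genes (points), with the line of equal values. The 149 rises of at least 4-fold picked under vehicle have medians of 3.19 under OCA and 2.51 under vehicle. Of these, 123 lie above the line, while 525 of all 959 rises called under vehicle were larger under vehicle.

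Genes called under vehicle were then followed library by library, which shows how evenly the OCA libraries carried the lobe pattern. The lists were the 423 rises and 492 falls of at least 2-fold under vehicle, beside 980 genes in either direction among all 8653 tested (11.3%). Both lists lie within the 8317 genes and rest on a spread shared by all 24 liver libraries, so the OCA libraries had a part in the choice. In the 6 embolized OCA libraries the rises lay a median of 1.46 to 2.22 above the non-embolized OCA mean on the log2 scale. The falls lay at −1.71 to −1.12, while the median of all 8317 genes stayed within 0.021 of that mean. The deposited scaling can itself hold the median of all genes near that mean, so it is no independent contrast. Embolized OCA 5 and 6 had the smallest rises (1.46 and 1.54). Embolized OCA 4 had the smallest falls (−1.12) with a rise of 2.22. In embolized OCA 1, 93.4% of the 423 rises lay above every non-embolized OCA library, against 74.2% in embolized OCA 6. The non-embolized libraries, each set against the other 5, lay between −0.37 and 0.42 for the rises and between −0.26 and 0.32 for the falls, so no embolized library overlapped them.

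**Figure D5:**
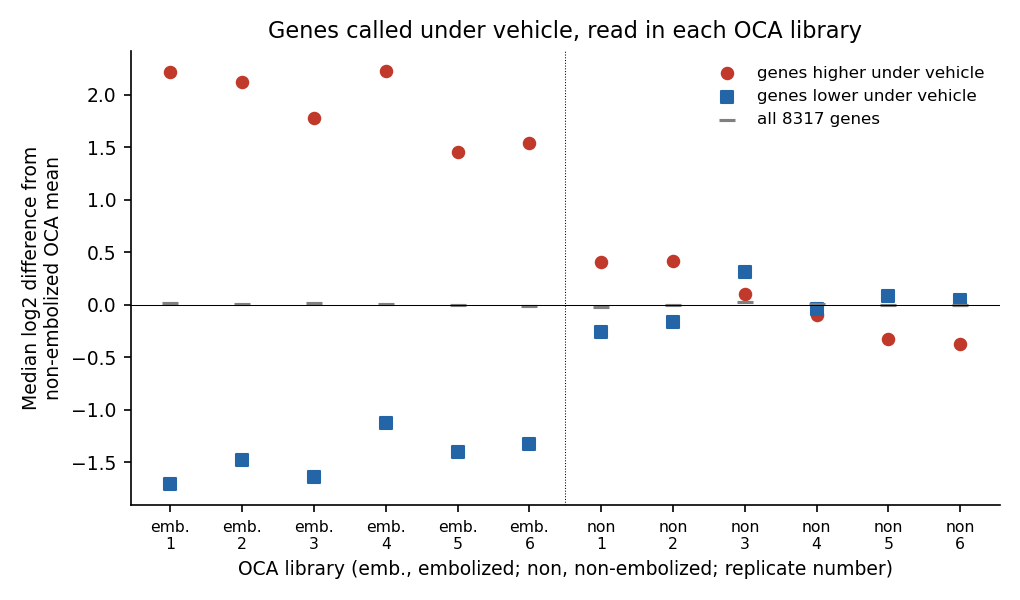
Median log2 difference from the non-embolized OCA mean in each OCA library (each non-embolized library against the other 5), for 423 genes higher (red circles) and 492 genes lower (blue squares) by at least 2-fold under vehicle, and for all 8317 genes (grey dashes). The 6 embolized libraries lie between 1.46 and 2.22 for the first list and between −1.71 and −1.12 for the second.

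These shifts changed the make-up of the RNA. All 959 genes higher under vehicle took 17.3 ± 1.95% of the reads in the embolized OCA lobe and 8.95 ± 0.85% in the non-embolized OCA lobe (SD, n = 6), and the 1186 lower genes took 6.15 ± 0.80% and 11.4 ± 0.85%; neither pair of ranges overlapped. The rising share was concentrated: 10 of the 959 genes held 55.1% of it in the embolized lobe, and 1 gene alone took 3.20% of the reads. The falling share was spread, with 24.9% of it in the leading 10 of the 1186 genes in the non-embolized lobe. Of the 10 highest genes by mean count 2 were called higher and 0 lower, of the 50 highest 10 and 8, and of the 100 highest 19 and 20, beside 32.2% called among all 8317. The single most abundant gene of a library took 17.2 ± 1.76% of its reads in the embolized OCA lobe and 16.7 ± 1.93% in the non-embolized OCA lobe, a difference within the spread.

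The spread between libraries also differed by direction. Among genes with a mean of at least 50, the 118 falls of at least 4-fold had a median SD of 0.71 over the 6 embolized libraries and 0.42 over the 6 non-embolized ones on the log2 scale, and 99 of them varied more in the embolized lobe. For the 138 such rises the SDs were alike, 0.84 and 0.82. Over all 6523 genes at that level they were 0.34 and 0.32. At any level, the 163 falls of at least 4-fold had a median of 27.0 normalized counts in the embolized lobe and 151 in the non-embolized lobe, and the 275 rises had medians of 75.8 and 9.67. Embolized OCA 4 lay far above the other embolized OCA libraries in 390 of the 8317 genes. The part of level and of this library in the spread was not tested.

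The terminal ileum libraries, 6 after OCA and 6 after vehicle, gave a readout that the choice of genes did not use. Of all 8317 genes, 95.9% reached a count of at least 10 there in at least 6 of 12 libraries. The share was 95.1% of the higher, 95.2% of the lower and 96.3% of the genes not called. Each deposited table lists 9419 genes, and a mean of 9291 had a read in the ileum OCA libraries and 9300 in the ileum vehicle libraries. How far the listed genes set this detection was not tested. The ileum table was normalized separately, so only ranks within it were compared. Among the 8317 genes, falls sat slightly high in ileum, at a median percentile of 55.9, and rises at 46.9. In liver the same lists lay further apart in the same order, at 64.4 and 40.0. Of the 2079 genes most abundant in ileum 432 fell (20.8%) and 324 rose (15.6%). Of the 2080 least abundant there 325 fell (15.6%) and 366 rose (17.6%). Among all 8317 genes 16.1% fell and 16.0% rose, so only the falls among the most abundant genes lay well away from these shares. Genes changed at least 4-fold sat low in ileum in both directions, at a median percentile of 27.3 for rises and 16.2 for falls. Their median percentile in liver was also low, at 10.2 and 30.2, and the part of liver level in this was not tested.

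Recovered reads per library were 12.3 to 17.3 M (megareads) in the embolized OCA lobe and 14.2 to 26.2 M in the non-embolized OCA lobe, so depth moved with the lobe; thinning all liver libraries to 1 depth left 1280 genes higher and 1310 lower. The first principal component of the 12 libraries accounted for 46.4% of the variance and split the lobes. The second accounted for 15.8% and set apart non-embolized OCA 1 and 2 and embolized OCA 4. These 3 libraries lay above the other 9 in 533 genes and below them in 314. Of these, 7 of the 533 (all lower) and 21 of the 314 (all higher) were called between the lobes, beside 32.2% called among all 8317. The choice puts libraries of both lobes on each side, so the lobes overlap in every such gene, and the low share called follows from it. The directions follow from the make-up of the 3 libraries, 2 of them non-embolized and 1 embolized. The 3 libraries had the 3 lowest normalized totals of the 12 libraries, 11.9 to 14.5 M. Without them 1237 genes were higher and 1357 lower, and the 4 genes given by ID kept their calls. The libraries also fall into 2 runs of library numbers, replicates 1 to 3 and replicates 4 to 6. Fitted alone, replicates 1 to 3 gave 1065 genes higher and 1026 lower, and replicates 4 to 6 gave 423 and 440. Of the 423 and 440 genes, 98.6% and 98.9% had the same sign in replicates 1 to 3, and of the 1065 and 1026 genes 93.8% and 94.1% had the same sign in replicates 4 to 6. Over all 8317 genes 48.7% were above 0 in replicates 1 to 3 and 50.6% in replicates 4 to 6.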

How the data were processed

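Strand-specific RNA-seq with paired-end reads was used, per the labels' protocols. STAR, RSEM and DESeq2 are named in the submitters' processing notes; the sources used here give no versions, genome build or annotation. The deposited tables, separate for liver and ileum, hold a normalized signal, which is each gene's count after the authors' scaling by a factor of the library. All values (100%) were whole multiples of their library's smallest step within 0.01, so reads were recovered. No 2 libraries of a liver group agreed within sampling noise (smallest chi-square per degree of freedom 40.1).

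Log2(normalized count + 1) values, on which changes of low genes are understated, were tested with limma-trend (limma 3.58.1, R 4.3.3). All 24 liver libraries were fitted as 4 group means with a shared spread, over the 8653 genes that reached a count of 10 in 6 or more of them, with Benjamini-Hochberg adjustment over all of them. The test was checked on simulated reads. Alternatives used edgeR 4.0.16, DESeq2 1.42.0, other scalings, pseudocounts, filters and libraries; thinned reads, the filter on all 24 libraries, the fits without 3 libraries and those without single vehicle libraries were chosen after seeing the data. The genes given by ID are the 2 rises and 2 falls of lowest p among called changes of at least 2-fold. The genes, lists and tests were chosen with earlier results of these data known. Gene lists by function and checks of gene length or GC content were not run, since no ID had a symbol or a length.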

Additional observations from a re-analysis of the deposited data

Results flagged for a closer look

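Of 18 groups of 6 values checked for a library far from the others, 2 were marked; chance marks about 1 in 20. ENSOCUG00000004987 stood at 85.7 normalized counts in embolized OCA 4, against 48.4 to 62.3 in the other embolized OCA libraries, a gap of 0.629 of the range. The 10 most abundant genes took 33.3% of the reads in embolized OCA 4, against 36.9 to 38.6% in the other embolized OCA libraries, a gap of 0.684 of the range. In the non-embolized OCA lobe the gene ran from 205 to 325 and the share from 33.8 to 40.4%. Over the 8317 genes, 10.1% had such a library in the embolized OCA lobe and 5.69% in the non-embolized OCA lobe, and embolized OCA 4 alone lay far above its group in 390 genes.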

How the results depend on the processing

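Over 30 other settings the number of genes called under OCA kept within 1.5 times of 2675 except within replicates 4 to 6, which gave 863 calls (423 higher, 440 lower, 617 at least 2-fold). Requiring a count of 10 in all 24 libraries, a filter that removes genes near silent in 1 lobe, left 615 calls of at least 2-fold. Leaving out 1 library gave 2226 to 2667 calls. The log2 fold changes ran from 3.65 to 3.94 for ENSOCUG00000010756, 2.59 to 2.85 for ENSOCUG00000007635, −1.85 to −1.62 for ENSOCUG00000011100 and −2.21 to −1.92 for ENSOCUG00000004987, with a limma, edgeR or DESeq2 adjusted p of at most 0.00208. Calls under vehicle were 2145, but 3340 with sample quality weights, 1104 within replicates 1 to 3 and 561 within 4 to 6. The interaction gave 4 calls with DESeq2 and 0 in the other settings. Within 3 replicates fewer samples enter; the cause of the other changes was not tested. The replicate numbers were not read as pairs between the OCA lobes: 5 of 6 same-numbered libraries correlated above 0.1 in their deviations (−0.12 to 0.51) and for 5 the best match was the same number, a hint from the data. Between the vehicle lobes all 6 pairs correlated above 0.1 (0.14 to 0.56), and for 4 the best match was the same number. A replicate block gave 3201 calls under OCA, 1580 higher and 1621 lower, and 2716 under vehicle.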
